A study of Mus musculus with 8 samples.

Results

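Expression was compared between 2 mouse embryonic stem cell lines that lack functional Runx1, iDamko (written iDam_runx1-/- in the study's design) and Ainv18ko (Ainv18_runx1-/-), to describe what each line still expressed and which genes set the knockout lines apart. The members were taken from the cell line label and comprised 4 of the 8 libraries of the series, 2 of iDamko and 2 of Ainv18ko. The other 4 libraries came from the iDam and BryGFP lines, both with a wild-type (wt) background. All lines were of strain 129 and were handled alike. FLK1+ cells were collected from d3.25 embryoid bodies and grown for 2 days in blast medium, and hemogenic endothelium, the endothelium that gives rise to blood, was sorted as cKIT+ TIE2+ CD41-. Ribosomal RNA was depleted from total RNA before sequencing, and the design text calls the libraries of a line biological duplicates. iDam was measured with and without Runx1, whereas Ainv18ko had no wt line of its own name among the groups, so line background and knockout cannot be told apart for it.

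Values were the authors' RPKM, reads scaled by gene length and by library depth, for the 622 genes of the deposited table. In the authors' deposited table every gene had a false discovery rate at or under 0.05 for the 4 ko libraries against iDam and again against BryGFP. A gene that differed strongly between the ko lines had less chance of entering that table, so shares of genes given here do not describe the whole transcriptome. Implied depths were chosen so that most low values fell on whole reads. They were 46980000 and 58930000 reads for the iDamko libraries and 44430000 and 42370000 for the Ainv18ko libraries. Genes that averaged 1 RPKM or more across the 8 libraries, 360 in all, were tested with limma on log2(RPKM + 1) with 1 mean per line, and Benjamini-Hochberg adjustment of p ran over all 360. Runx1 was not analysed here, and of 11 markers fixed for hemogenic endothelium only Gfi1 was in the table, so neither the genotype nor the sorted cell type could be checked against its defining genes.

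RUNX1 is a transcription factor that endothelial cells need to turn into blood cells. Imprinted genes are read from only one parental chromosome. The Dlk1-Dio3 region of mouse chromosome 12 is such a domain: its maternally inherited copy gives the long noncoding RNAs Meg3, Rian and Mirg, and these transcripts host a large group of C/D box small nucleolar RNAs (snoRNAs, which in general guide ribose methylation of other RNAs) and many microRNA (miRNA) hairpins. H19 is the maternally expressed long noncoding RNA of another imprinted domain and is the precursor of miR-675.

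Of the 360 genes tested, 13 (3.61%) differed between iDamko and Ainv18ko at an adjusted p under 0.05. One gene was higher in iDamko, H19 (0.278% of those tested), and 12 were lower (3.33%). Of those 12, 11 were noncoding RNAs of the Dlk1-Dio3 locus and the other was the smooth muscle actin gene Acta2. The 11 were Rian and 10 snoRNAs that start between the starts of Rian and Mirg, so they are not 11 separate results. At an unadjusted p under 0.05 there were 19 genes (5.28%). Among the 324 tested genes outside the locus, 2 were called (0.617%), and the median log2 difference of iDamko minus Ainv18ko was -0.01, with quartiles of -0.09 and 0.09. In the same model iDam and BryGFP differed in 91 genes (25.3%), with 22 higher (6.11%) and 69 lower (19.2%) in iDam. The table was chosen with the ko libraries of both lines as a single group, but with each wt line compared separately. A difference between the ko lines lowered the chance of a gene to enter it. The counts for the ko lines and the wt lines therefore cannot show which pair of lines is more alike.

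**Figure D1:**
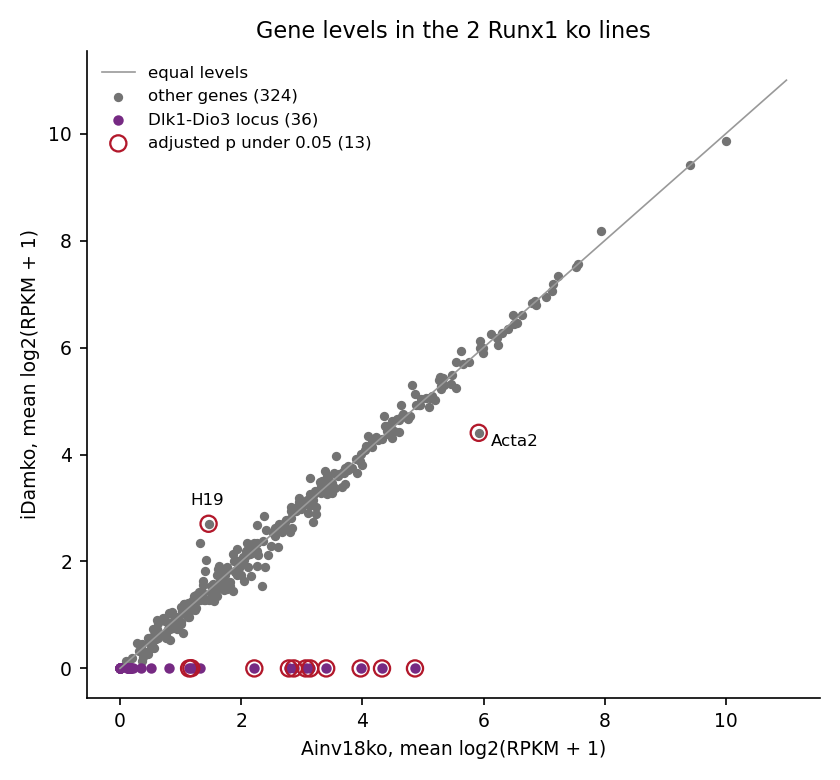
Mean log2(RPKM + 1) of each of the 360 tested genes, in iDamko (vertical axis) and Ainv18ko (horizontal axis), with the 36 tested transcripts of the Dlk1-Dio3 locus in purple and the 13 genes past an adjusted p of 0.05 ringed. Nearly all grey points lie along the line of equal levels, H19 lies above it and Acta2 below it, and the locus transcripts lie along the bottom, with Ainv18ko means up to 4.87 and iDamko means at or near 0.

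The Dlk1-Dio3 locus held 49 transcripts of the table, namely 19 snoRNAs, 27 miRNA hairpins and the 3 long noncoding RNAs Meg3, Rian and Mirg. In GRCm38 the span from Meg3 to Mir410 is chr12:109541001-109743795, and all 19 snoRNAs start between the starts of Rian and Mirg. The 4 snoRNAs with the highest Ainv18ko levels are shown because the ko lines differed most in them, together with 1 snoRNA of the same cluster that was listed at 0 in both ko lines. Boxes were marked by their letters alone, so a marked CTGA need not be the D box in use. In Gm23787 below it lies further from the end than in the other marked sequences. The letters of the C and D boxes, TGATGA and the last CTGA after it, are in capitals where a sequence holds both. These were searched on the transcript strand only, and 14 of the 19 locus snoRNAs and 362 of the 1507 snoRNA transcripts of GENCODE vM21 (24.0%) hold both, so the pair is not special to the locus. The sequences and GRCm38 positions come from GENCODE vM21 by Ensembl gene ID: AF357425 (ENSMUSG00000088294) lies at chr12:109636012-109636084, DQ267100 (ENSMUSG00000084549) at chr12:109649617-109649688, Gm23787 (ENSMUSG00000084487) at chr12:109684962-109685034, Gm26922 (ENSMUSG00000064621) at chr12:109654627-109654698 and Gm23600 (ENSMUSG00000087885) at chr12:109643748-109643818, all on the + strand. The table calls DQ267100, Gm23787 and Gm23600 SNORD113 and Gm26922 AF357355.
AF357425: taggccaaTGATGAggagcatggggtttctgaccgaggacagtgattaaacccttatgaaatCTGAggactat
DQ267100: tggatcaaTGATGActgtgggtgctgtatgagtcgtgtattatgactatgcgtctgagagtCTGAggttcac
Gm23787: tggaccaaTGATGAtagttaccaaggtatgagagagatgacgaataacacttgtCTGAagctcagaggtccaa
Gm26922: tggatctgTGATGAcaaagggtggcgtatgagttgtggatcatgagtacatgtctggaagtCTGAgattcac
Gm23600: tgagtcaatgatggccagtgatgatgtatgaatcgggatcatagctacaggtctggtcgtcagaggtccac

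In iDamko the locus was almost silent, while Ainv18ko kept a low level of its snoRNAs. AF357425 was listed at 0 in both iDamko libraries, against 36.7 and 21.7 RPKM in the Ainv18ko libraries, 230.4 and 256.6 RPKM in iDam and 394.3 and 490.2 RPKM in BryGFP. DQ267100 was listed at 0 in both iDamko libraries, against 19.07 and 19.01 RPKM in Ainv18ko, 260.0 and 382.1 RPKM in iDam and 435.4 and 540.6 RPKM in BryGFP. The order of the lines was thus iDamko, Ainv18ko, iDam and BryGFP from low to high for both snoRNAs, and no libraries of different lines overlapped. Gm23787 was listed at 0 in both iDamko libraries, against 9.87 and 21.7 RPKM in Ainv18ko, with 187.1 and 245.6 RPKM in iDam and 282.2 and 291.2 RPKM in BryGFP. Gm26922 was listed at 0 in both iDamko libraries, against 10.0 and 9.18 RPKM in Ainv18ko, with 84.8 and 137.3 RPKM in iDam and 176.8 and 199.9 RPKM in BryGFP.

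These snoRNAs had the largest differences in the comparison. On the log2(RPKM + 1) scale AF357425 fell by 4.87 in iDamko relative to Ainv18ko (SE 0.27, adjusted p = 3.64e-06, limma), DQ267100 by 4.32 (SE 0.24, adjusted p = 3.64e-06, limma) and Gm23787 by 3.97 (SE 0.32, adjusted p = 3.21e-05, limma). A difference from a value of 0 depends on the pseudocount: that of AF357425 was -8.14 with a pseudocount of 0.1 RPKM and -2.74 with 5 RPKM. At the implied depths, 3 reads of AF357425 would have given 0.875 and 0.697 RPKM in the iDamko libraries, a limit that covers counting error only.

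Over the whole cluster, 16 of the 19 snoRNAs were above 0 in at least 1 Ainv18ko library and 13 in both, and none was above 0 in an iDamko library. The 10 called snoRNAs were all lower in iDamko, and besides those printed above they were DQ267102, DQ267101, Gm25854, Gm24895, AF357341 and Gm23736, with log2 differences between -3.14 and -1.14. The weakest of the called snoRNAs, Gm23736, had 0 in both iDamko libraries and 1.501 and 0.944 RPKM in Ainv18ko. Gm23600, which holds TGATGA but no later CTGA and so has no capitals above, was listed at 0 in all 4 ko libraries. It averaged 5.13 RPKM in wt libraries. Many SNORD113 copies are alike in sequence, and the snoRNAs and hairpins lie inside their host transcripts, so the authors' counting could have split or shared reads among them. The values of single copies are uncertain for that reason, but every copy was listed at 0 in iDamko.

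The host RNAs followed the same order. Rian had 0.0033 and 0.0027 RPKM in iDamko, against 1.58 and 0.985 RPKM in Ainv18ko, 21.4 and 22.5 RPKM in iDam and 36.0 and 53.3 RPKM in BryGFP. Rian fell by 1.17 on the log2 scale in iDamko relative to Ainv18ko (SE 0.24, adjusted p = 0.0244, limma). Meg3 had 0 and 0.0004 RPKM in iDamko, against 0.204 and 0.0667 RPKM in Ainv18ko. Mirg had 0.0138 and 0 RPKM in iDamko, against 0.172 and 0.0306 RPKM in Ainv18ko. Neither Meg3 nor Mirg passed the test, and their Ainv18ko libraries lay above their iDamko libraries. The protein-coding genes of the domain, Dlk1, Rtl1 and Dio3, were not analysed here.

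The miRNA hairpins were weaker than the snoRNAs in wt libraries, with a median wt mean of 2.18 RPKM against 23.3 RPKM for the snoRNAs. All 27 hairpins were listed at 0 in both iDamko libraries, and 9 were above 0 in at least 1 Ainv18ko library. Of the 49 locus transcripts 13 fell below the filter and were not tested, hairpins such as Mir377 and Mir410 among them. None of the tested hairpins was called, against 3.61% of all tested genes. Tested hairpins listed at 0 in all 4 ko libraries, such as Mir382, could not have been called. Only Mir1906-1 was above 0 in both Ainv18ko libraries, at 0.563 and 0.295 RPKM, against 3.30 and 1.77 RPKM in iDam and 10.1 and 15.9 RPKM in BryGFP. Mir134 had 0.634 RPKM in 1 Ainv18ko library and 0 in the other. Mir3070a and Mir3070b had the same value, 0.253 RPKM, in 1 Ainv18ko library and 0 in the other, and their mature products are near copies. The mature RefSeq sequences (build GRCm38.p6) of these hairpins and of Mir675, described further on, are printed with the seed, bases 2 to 8, in capitals. All 10 hairpin genes looked up in RefSeq had an entry, with 19 mature sequences and 17 different seeds. The seeds shared were those of the Mir3070a and Mir3070b products. The table measures the hairpin gene in total RNA and not the mature miRNA.
mmu-miR-1906: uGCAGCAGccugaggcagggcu
mmu-miR-134-5p: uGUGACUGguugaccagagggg
mmu-miR-134-3p: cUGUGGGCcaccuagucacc
mmu-miR-3070-5p: aGCCCCUGaccuugaaccuggga
mmu-miR-3070-3p: uGGUGCUAccgucagggguaga
mmu-miR-3070-2-3p: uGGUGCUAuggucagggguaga
mmu-miR-675-5p: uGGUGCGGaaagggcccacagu
mmu-miR-675-3p: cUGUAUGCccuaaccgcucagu

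Of the 49 locus transcripts, 46 were listed at 0 in both iDamko libraries, while 21 were listed at 0 in both Ainv18ko libraries, 11 were above 0 in 1 Ainv18ko library and 17 in both. For those 17 the Ainv18ko mean was between 2.65% and 12.3% of the wt mean, with a median of 6.41%. Summed over the 44 small RNAs whose reads could be counted from the RPKM steps, the iDamko libraries held 0 and 0 reads, against 368 and 339 reads in Ainv18ko, 4395 and 4711 in iDam and 7145 and 9176 in BryGFP. No read of these small RNAs was thus seen in iDamko, whose implied depths were above those of Ainv18ko, and some were seen in both Ainv18ko libraries. In iDam the mean was below that in BryGFP for all 49 transcripts. SNORA5, Snord69 and others made up 6 tested snoRNAs of other loci that were not SNORD113 copies. Their ratio of the iDamko mean to the Ainv18ko mean was between 0.887 and 1.203. A tested SNORD113 copy on chromosome 9, Gm22962, was left out of that range. It was listed at 0 in both iDamko libraries and had 0.308 and 0 RPKM in Ainv18ko. In bulk RNA, fewer cells that express the locus and less RNA per cell cannot be told apart.

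**Figure D2:**
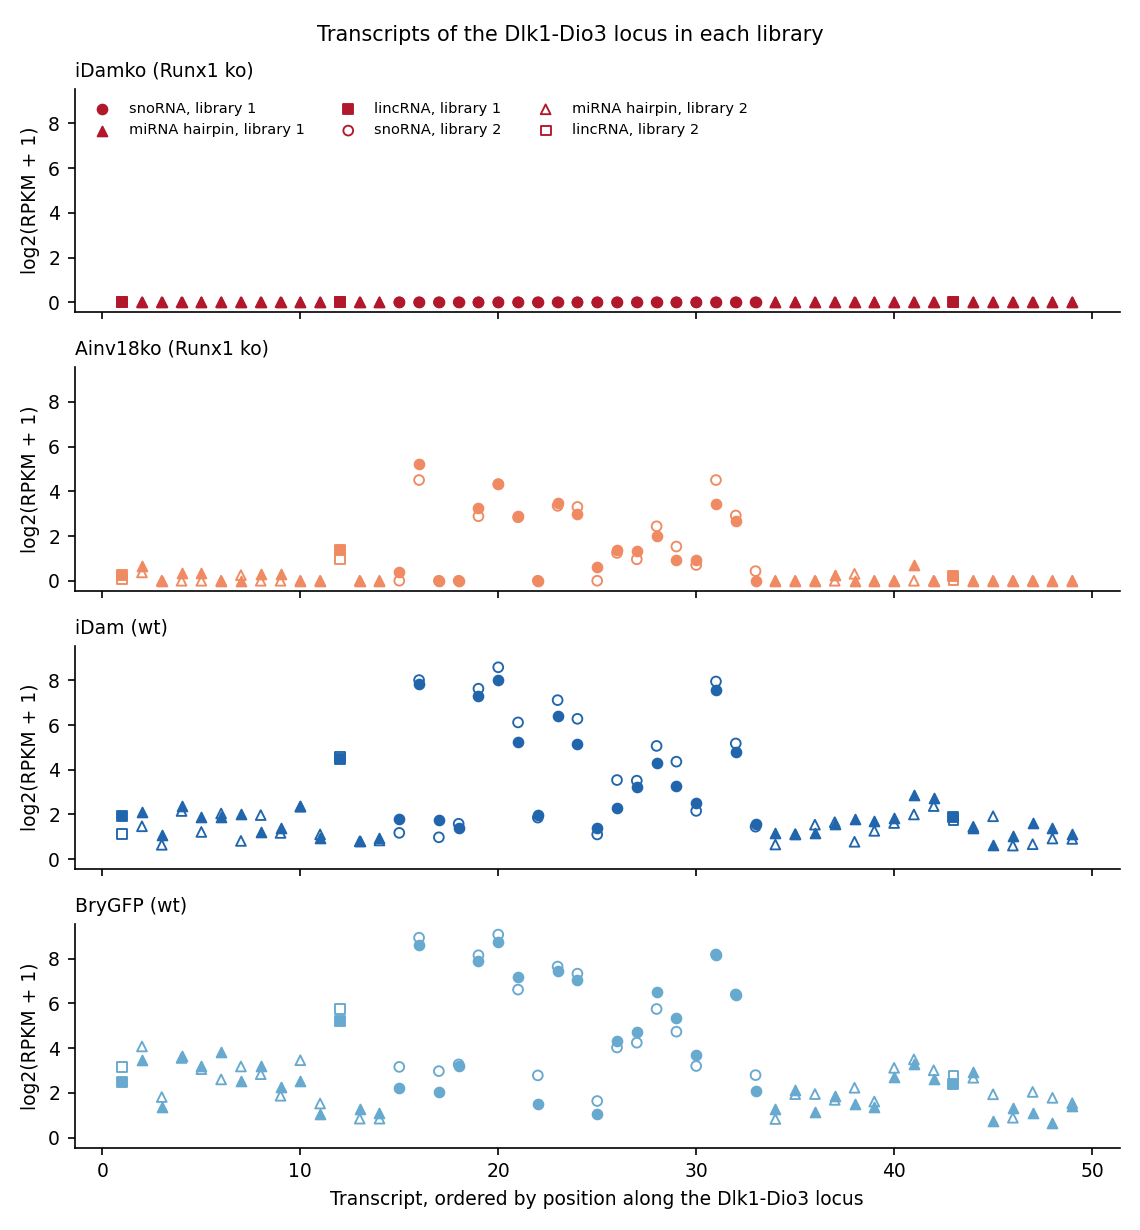
Log2(RPKM + 1) of the 49 Dlk1-Dio3 transcripts, ordered along the chromosome, in 1 panel per line from iDamko at the top to Ainv18ko, iDam and BryGFP. Filled symbols are libraries numbered 1 and open symbols libraries numbered 2, and circles, triangles and squares are snoRNAs, miRNA hairpins and long noncoding RNAs. The iDamko row stays at 0, and the Ainv18ko row repeats the outline of the wt snoRNA cluster at a lower height.

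In all, 14 genes were listed at 0 in both iDamko libraries and above 0 in both Ainv18ko libraries, and all 14 belonged to the Dlk1-Dio3 locus. The reverse held for 1 gene, Gprin3, with 0.0275 and 0.0055 RPKM in iDamko. Outside the locus 6 genes were listed at 0 in both iDamko libraries. One of them was a SNORD113 copy on chromosome 9, Gm22962, which had 0.308 and 0 RPKM in Ainv18ko and averaged 12.46 RPKM in wt libraries. The other 5 (Mc5r, Podnl1, Fam70b, Nr1h4 and Lyz2) had at most 0.0171 RPKM in an Ainv18ko library.

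H19 went the other way. It had 7.43 and 4.04 RPKM in iDamko, against 2.25 and 1.34 RPKM in Ainv18ko, 36.0 and 42.5 RPKM in iDam and 78.7 and 91.7 RPKM in BryGFP. The iDamko libraries lay above the Ainv18ko libraries, and the iDam libraries lay below the BryGFP libraries. H19 averaged 5.74 ± 2.39 RPKM in iDamko and 1.79 ± 0.642 RPKM in Ainv18ko (SD, n = 2 each), a ratio of 3.20, and rose by 1.24 on the log2 scale in iDamko relative to Ainv18ko (SE 0.28, adjusted p = 0.0448, limma). What remained was 9.22% of the wt mean in iDamko and 2.88% in Ainv18ko. H19 (ENSMUSG00000000031) lies on the minus strand at chr7:142575529-142578143 in GRCm38.

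The H19-derived hairpin Mir675 had 5.83 and 2.83 RPKM in iDamko, against 1.61 and 1.40 RPKM in Ainv18ko, 34.5 and 39.7 RPKM in iDam and 74.4 and 70.7 RPKM in BryGFP. Its ko libraries did not overlap either, and its log2 difference was 1.03 (SE 0.27, adjusted p = 0.101, limma), which did not pass. Mir675 lies within the H19 gene, and its reads may have been counted in both, so the pair is not 2 separate results. The difference between the ko lines differed from that between the wt lines, by 2.34 on the log2 scale for H19 (adjusted p = 0.00787) and by 1.98 for Mir675 (adjusted p = 0.0159), both from the limma contrast of the 2 line differences.

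Acta2, which encodes smooth muscle alpha-actin, had 22.59 and 18.04 RPKM in iDamko, against 72.8 and 48.7 RPKM in Ainv18ko, 134.3 and 121.7 RPKM in iDam and 446.2 and 633.3 RPKM in BryGFP. The 4 lines were separate, in the order iDamko, Ainv18ko, iDam and BryGFP. Acta2 averaged 20.3 ± 3.22 RPKM in iDamko and 60.8 ± 17.0 RPKM in Ainv18ko (SD, n = 2 each) and fell by 1.52 on the log2 scale (SE 0.29, adjusted p = 0.0190, limma). What remained was 6.08% of the wt mean in iDamko and 18.2% in Ainv18ko. Acta2 (ENSMUSG00000035783) lies at chr19:34241090-34255590 on the minus strand in GRCm38.

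Of the 5 tested genes of the smooth muscle and mesenchyme list only Acta2 was called. Cspg4 and Foxc1 fell below the filter and were not tested. Outside the locus 0.617% of the tested genes were called, so the lack of other calls says little. The list had 6 genes other than Acta2 in the table, tested or not. Their summed RPKM was 9.16 and 10.5 in iDamko, against 12.2 and 13.2 in Ainv18ko, 30.2 and 31.5 in iDam and 59.8 and 76.4 in BryGFP. Myl9 was the largest part of each sum, and without it the sum of the other 5 was 3.82 and 2.86 in iDamko, against 5.54 and 2.61 in Ainv18ko, so the ko lines overlapped. None of them was at 0. Myl9, a myosin light chain gene, had 5.34 and 7.63 RPKM in iDamko, against 6.68 and 10.6 RPKM in Ainv18ko. Pdgfrb, the mural cell receptor, had 0.951 and 0.621 RPKM in iDamko, against 1.42 and 0.684 RPKM in Ainv18ko. The libraries of the ko lines overlapped in both genes, and whether a share of such cells has a part in the Acta2 difference was not tested.

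The calls of Acta2, H19, Rian, Gm23736 and Gm23787 changed with the libraries or genes in the fit. All 5 were lost in a limma fit of only the 4 ko libraries. Adjusted p there was 0.214 for Acta2, 0.642 for H19, 0.0731 for both Rian and Gm23736, and 0.0531 for Gm23787. These calls thus rest on a spread that includes the wt libraries. With the locus transcripts left out, neither Acta2 nor H19 passed, with adjusted p = 0.156 for Acta2 and 0.234 for H19 over 324 genes (limma), although 5 genes had an unadjusted p under 0.05. The Acta2 call was lost without iDamko library 1 (adjusted p = 0.0663), without iDamko library 2 (0.174) or without Ainv18ko library 1 (0.145), and the H19 call without any 1 library other than iDamko library 2, with adjusted p between 0.0559 and 0.353 in limma. Within the locus, the calls of Rian and Gm23736 were lost without iDamko library 1 (adjusted p = 0.112 for Rian and 0.143 for Gm23736, limma), without iDamko library 2 (0.104 and 0.135) or without Ainv18ko library 1 (0.196 and 0.240), and that of Gm23736 also without Ainv18ko library 2 (0.0542).

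**Figure D3:**
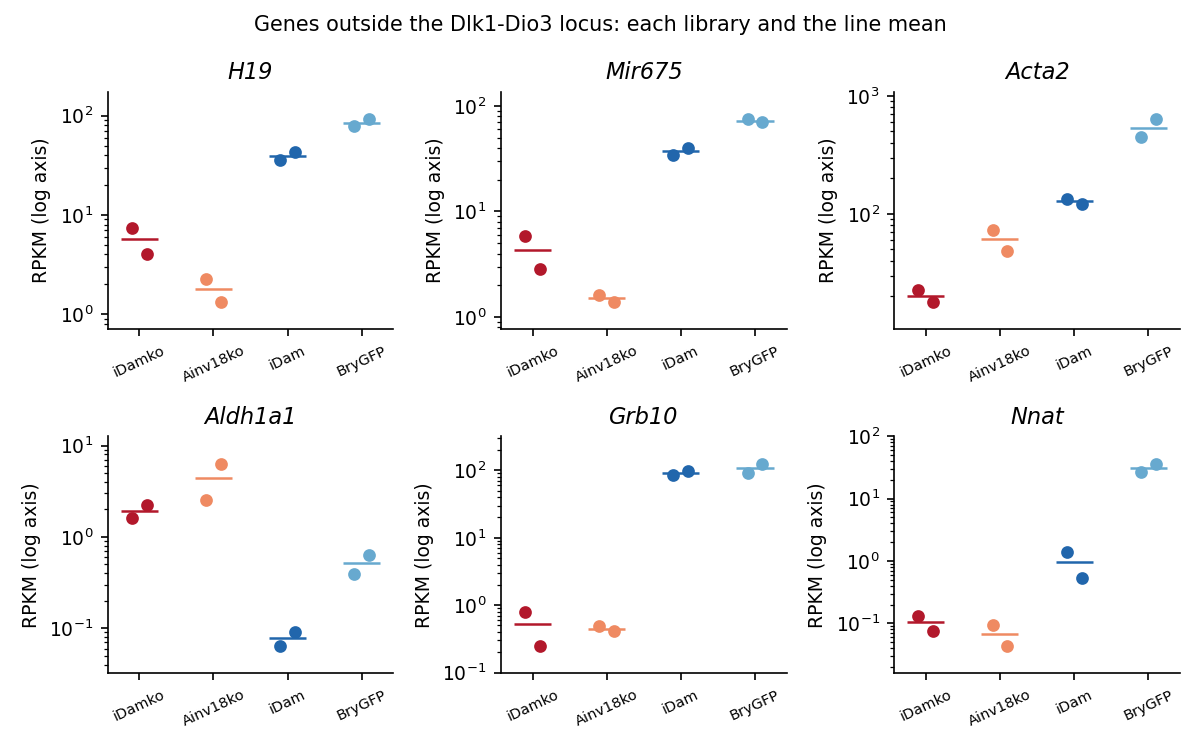
RPKM on log axes of 6 genes in each library (points) with the line mean (bars), in the order iDamko, Ainv18ko, iDam and BryGFP. H19 and Mir675 are higher in iDamko than in Ainv18ko, Acta2 and Aldh1a1 are lower, and Grb10 and Nnat have overlapping ko libraries that lie below 1 RPKM.

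Libraries of the ko lines did not overlap in 29 tested genes that were higher in iDamko (8.06%) and in 45 that were lower (12.5%). Without the locus these were 29 (8.95%) and 28 (8.64%) of 324. Only 3 genes outside the locus had a difference of at least 1 on the log2 scale, namely Acta2, H19 and Mir675, and 5 had at least 0.5. The 10 largest among the 45 were 9 locus snoRNAs and Acta2. After H19 and Mir675, the largest of the 29 that were higher was Dppa4, a pluripotency-associated gene, with 2.92 and 3.21 RPKM in iDamko, against 1.32 and 2.10 RPKM in Ainv18ko and a wt mean of 8.33 RPKM. Its log2 difference was 0.60 (SE 0.27, adjusted p = 0.938, limma). The other 7 named by the rule were a U1 small nuclear RNA copy, Atp2b4, Ccnb1ip1, Btg2, Unc5c, Clic6 and Gimap4, with log2 differences of 0.31 to 0.49 and none past the test.

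Btg2, an antiproliferative gene, had 15.8 and 13.7 RPKM in iDamko, against 11.6 and 9.97 RPKM in Ainv18ko and a wt mean of 25.5 RPKM. Atp2b4, a plasma membrane calcium pump gene, had 5.70 and 6.72 RPKM in iDamko, against 5.23 and 3.36 RPKM in Ainv18ko, and its wt mean was 1.52 RPKM. Thus Btg2 was lower and Atp2b4 higher in ko than in wt cells, and in both the iDamko libraries lay above those of Ainv18ko. Aldh1a1, a retinaldehyde dehydrogenase gene, was singled out after its values were seen. It had 1.63 and 2.23 RPKM in iDamko, against 2.51 and 6.35 RPKM in Ainv18ko, with a log2 difference of -0.80 (SE 0.31, adjusted p = 0.548, limma). Without Ainv18ko library 1 it was -1.33 and passed (adjusted p = 0.00825, limma).

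The 21 gene lists gave few differences. Beside the 2 Rian entries of the Dlk1-Dio3 list, Acta2 in the smooth muscle list and H19 in the imprinted list were the only called members, and 1 list, of X- and Y-linked genes, had no member in the table. Of the 11 tested matrix genes none was called, where 0.617% of the tested genes outside the locus were, and the median log2 difference was -0.12. In 5 of the 11 both iDamko libraries lay below both Ainv18ko libraries, as in 8.64% of the tested genes outside the locus. Fbln2, an elastic fibre glycoprotein gene, had 1.99 and 2.63 RPKM in iDamko, against 3.26 and 3.71 RPKM in Ainv18ko and a wt mean of 7.005 RPKM. Col5a1, a fibrillar collagen chain gene, had 6.52 and 4.96 RPKM in iDamko, against 8.61 and 7.68 RPKM in Ainv18ko and a wt mean of 26.2 RPKM. The difference was -0.44 for Fbln2 (SE 0.20) and -0.45 for Col5a1 (SE 0.22) on the log2 scale, and neither passed. Lamb2, Timp2 and Plau were the other 3.

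None of the 5 tested integrin genes was called, which at a share of 0.617% outside the locus says little about them, and their median difference was -0.04. Itga3, an integrin alpha chain gene, had 3.12 and 3.61 RPKM in iDamko, against 4.45 and 4.36 RPKM in Ainv18ko. Itgb5, a beta chain gene, had 1.40 and 2.12 RPKM in iDamko, against 2.82 and 2.44 RPKM in Ainv18ko. In these 2 genes iDamko lay below Ainv18ko without overlap, as in 8.64% of the tested genes outside the locus, while in Itgb3, Itgb2 and Fermt3 (kindlin-3, an integrin activator) they did. Across the 9 genes of the imprinted list outside Dlk1-Dio3, 6 were tested, 1 was called and the median difference was 0.05. The median over all 360 genes was -0.01.

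Of the markers of other cell types, Alas2, the erythroid enzyme of haem synthesis, had 15.6 and 9.15 RPKM in iDamko, against 12.4 and 7.20 RPKM in Ainv18ko and a wt mean of 1.38 RPKM. Gata4, a cardiac and endoderm transcription factor gene, had 39.5 and 48.8 RPKM in iDamko, against 44.8 and 42.1 RPKM in Ainv18ko and a wt mean of 10.7 RPKM. The cardiac list was not uniform, since 2 of its 7 genes, Hand1 and Isl1, were lower in ko than in wt. Hand1 averaged 0.991 RPKM in iDamko and 1.28 RPKM in Ainv18ko, against a wt mean of 11.9 RPKM. Isl1 averaged 0.0279 RPKM in iDamko and 0.0323 RPKM in Ainv18ko, against a wt mean of 0.689 RPKM. The summed RPKM of the 4 erythroid genes in the table was 139.3 to 170.5 in iDamko and 141.0 to 147.3 in Ainv18ko. That of the 7 cardiac genes was 96.4 to 108.4 in iDamko and 88.9 to 115.9 in Ainv18ko. For the 5 endothelial genes it was 22.6 to 27.6 in iDamko and 15.0 to 28.1 in Ainv18ko, and for the 4 myeloid genes 1.31 to 4.18 in iDamko and 1.60 to 3.98 in Ainv18ko. The ranges of the ko lines overlapped in each of these lists, and Lyz2 of the myeloid list was at 0 in both iDamko libraries and 1 Ainv18ko library.

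The level that remained in ko cells was close to the same in both lines for most tested genes of the table. All of these genes had been chosen by the authors for a difference between ko and wt. The ko libraries of both lines formed a single group in that choice, which favoured genes at a like level in both. The shares are thus descriptions without a test, and they cannot tell how alike the ko lines are outside the table. For the 204 tested genes that were lower in ko, the median share of the wt mean was 29.2% in iDamko and 29.5% in Ainv18ko, and outside the locus, over 168 genes, 32.1% in iDamko and 33.6% in Ainv18ko. The 156 genes higher in ko had median ratios to the wt mean of 2.35 in iDamko and 2.31 in Ainv18ko. The line means lay within 1.5-fold of each other for 151 of the 168 lower genes and 154 of the 156 higher genes. The lines parted at the lowest levels, where 39 genes in iDamko and 11 in Ainv18ko were under 1% of the wt mean, and outside the locus these were 3 in iDamko and 2 in Ainv18ko.

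**Figure D4:**
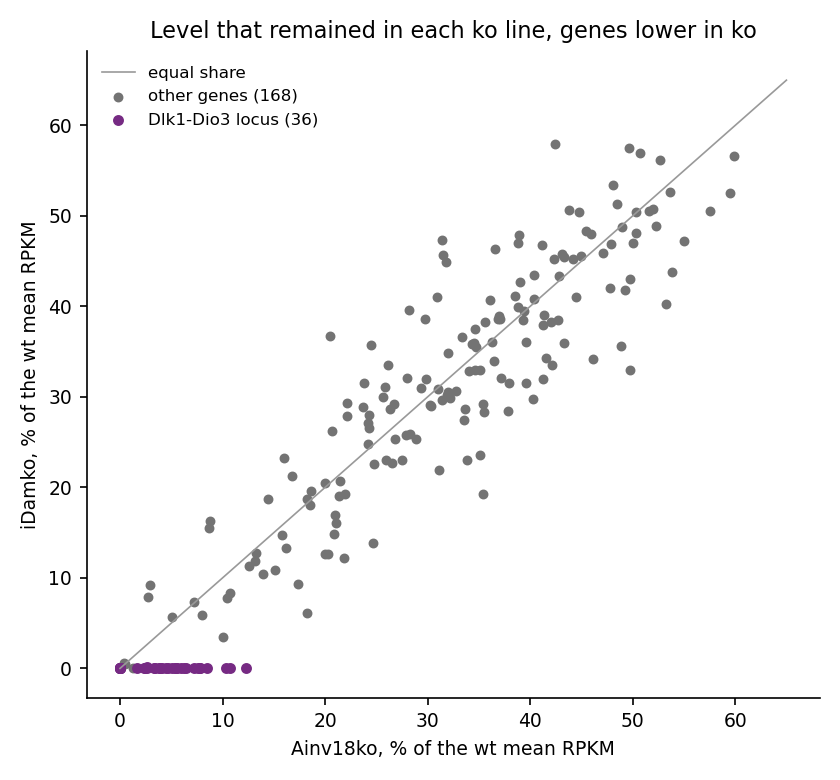
Share of the wt mean RPKM that remained in iDamko (vertical axis, %) and Ainv18ko (horizontal axis, %) for the 204 tested genes lower in ko, with 36 locus transcripts in purple and 168 other genes in grey. Grey points follow the line of equal share, with medians of 32.1% in iDamko and 33.6% in Ainv18ko, and the locus transcripts lie at or near 0% in iDamko.

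Grb10 and Nnat had the lowest ko means outside the locus among genes with at least 10 RPKM in wt, next to the Gm22962 copy given above. Grb10, an imprinted adaptor of growth factor receptors, had 0.786 and 0.249 RPKM in iDamko, against 0.489 and 0.411 RPKM in Ainv18ko and a wt mean of 100.01 RPKM. That was 0.517% of the wt mean in iDamko and 0.450% in Ainv18ko. Nnat, an imprinted gene of neural and endocrine tissue, had 0.131 and 0.0758 RPKM in iDamko, against 0.0929 and 0.0434 RPKM in Ainv18ko. In wt cells Nnat differed by line, with 1.37 and 0.525 RPKM in iDam and 26.6 and 36.5 RPKM in BryGFP. The ratio of the iDamko mean to the Ainv18ko mean was 1.15 for Grb10 and 1.52 for Nnat, the ko libraries of the lines overlapped in both genes, and the log2(RPKM + 1) scale cannot resolve a difference at such levels. Other imprinted genes kept more: Ndn averaged 18.7 RPKM in iDamko and 19.1 RPKM in Ainv18ko against a wt mean of 35.5 RPKM, and Peg12 averaged 1.504 RPKM in iDamko and 1.503 RPKM in Ainv18ko against a wt mean of 3.81 RPKM. By ko mean, the next after Grb10 outside the locus were Hand1, a cardiac mesoderm factor gene, with 1.42 and 0.567 RPKM in iDamko, against 1.99 and 0.575 RPKM in Ainv18ko, and Kctd12b, with 1.70 and 2.32 RPKM in iDamko, against 1.90 and 1.90 RPKM in Ainv18ko.

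At the other end stood the 10 genes with the highest ko means among those higher in ko than in wt. SNORD19B had 758.7 and 1125 RPKM in iDamko, against 797.0 and 1327 RPKM in Ainv18ko. Snord69 had 630.6 and 735.4 RPKM in iDamko, against 582.7 and 785.5 RPKM in Ainv18ko. Glul, which encodes glutamine synthetase, had 188.5 and 439.6 RPKM in iDamko, against 165.6 and 358.6 RPKM in Ainv18ko and a wt mean of 39.7 RPKM. In these 3 the libraries of the ko lines overlapped, and within each line library 2 was the higher. SNORA5, SCARNA23, Tpt1-ps3, Nt5dc2 (a nucleotidase-domain gene), Vdac2 (a mitochondrial channel gene), Adk (adenosine kinase) and Lgmn (a lysosomal protease gene) followed, and none differed between the ko lines by more than 0.11 on the log2 scale. Fst, the activin antagonist gene, had 14.9 and 29.0 RPKM in iDamko, against 12.8 and 37.7 RPKM in Ainv18ko and a wt mean of 0.305 RPKM. The 67 tested genes of chromosome 14, of which 64 were higher in ko, had a median log2 difference of 0.02, and the 64 had a median ratio to wt of 2.08 in iDamko and 2.07 in Ainv18ko.

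Libraries of the ko lines were more alike by library number than by line. The numbers come from the column names, and nothing in the labels says that a number marks a shared culture or day. The median absolute log2 difference over the 360 genes was 0.136 between iDamko library 1 and Ainv18ko library 1 and 0.138 between the libraries numbered 2. It was 0.245 between the libraries of iDamko and 0.294 between those of Ainv18ko, and 0.299 and 0.290 for the crossed pairs of lines. A ko library and a wt library differed by 0.922 to 1.23. From library 1 to library 2, 248 of the 360 genes (68.9%) changed the same way in both ko lines.

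Genes that moved with the number included Tubb3, a neuronal tubulin gene, with 31.7 RPKM in library 1 and 85.3 in library 2 of iDamko, against 29.1 in library 1 and 70.7 in library 2 of Ainv18ko. Emb, Glns-ps1, Glul and Fst were the others with the largest shift to library 2. Cited4, a transcriptional coactivator gene, had 19.8 RPKM in library 1 and 4.77 in library 2 of iDamko, against 22.5 in library 1 and 6.40 in library 2 of Ainv18ko. Itgb2 (the leukocyte integrin beta chain), Tnni1 (slow troponin I), Alas2 and Fermt3 also shifted to library 1. No gene passed an adjusted p of 0.05 for number 2 against 1 over the 4 ko libraries in limma, and 106 (29.4%) had an unadjusted p under 0.05. These shifts were larger than the difference between the ko lines for each gene named in this paragraph.

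**Figure D5:**
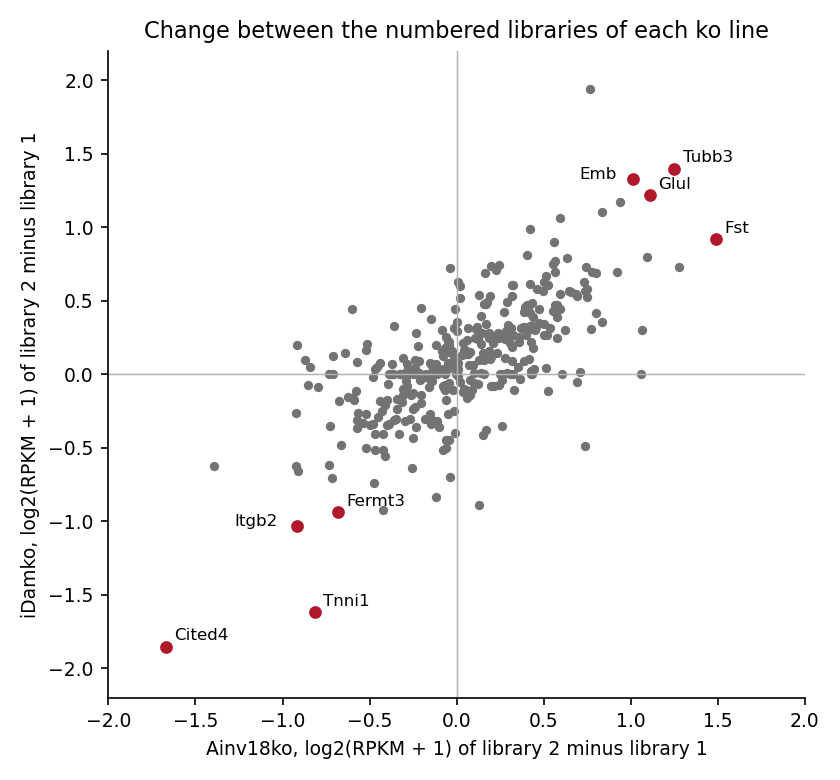
Log2(RPKM + 1) of library 2 minus library 1 within iDamko (vertical axis) and within Ainv18ko (horizontal axis) for the 360 tested genes, with 8 named genes in red. Points run from the lower left (Cited4, Tnni1, Itgb2, Fermt3) to the upper right (Tubb3, Glul, Emb, Fst), and 248 of the 360 changed the same way in both lines.

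The line differences were also taken within each library number. H19 differed by 1.38 between the libraries numbered 1 and by 1.11 between those numbered 2, on the log2 scale of iDamko minus Ainv18ko. Acta2 differed by -1.65 between the libraries numbered 1 and by -1.39 between those numbered 2. For Mir675 the values were 1.39 for number 1 and 0.67 for number 2, and for Dppa4 0.76 and 0.44 in the same order. For Aldh1a1 they were -0.42 and -1.18 in that order. The sign of these values follows from ko libraries that do not overlap, so they show the size of the difference within a number only.

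The difference between the ko lines was itself compared with that between the wt lines in 1 contrast, (iDamko minus Ainv18ko) minus (iDam minus BryGFP), and 35 genes passed (9.72%), 22 with a positive value (6.11%) and 13 with a negative one (3.61%). Of these 14 were in the Dlk1-Dio3 locus and 21 outside it. Ainv18ko had no wt line of its own name, so line background and knockout cannot be told apart in this contrast. Nnat had the largest value, 4.13 on the log2 scale (adjusted p = 0.000246, limma), with a ko-line difference of 0.05 and a wt-line difference of -4.08. Tubb3 followed a like pattern, with a ko-line difference of 0.19 that turned negative with iDamko library 2 or Ainv18ko library 1 left out, a wt-line difference of -2.57 and a contrast of 2.76 (adjusted p = 0.0330, limma). For Acta2 the contrast was 0.53 (adjusted p = 0.576, limma), with -1.52 between the ko lines and -2.05 between the wt lines. The lower Acta2 level of iDamko thus stood beside a lower level in iDam relative to BryGFP, and a difference in size between the 2 was not detectable.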

How the data were processed

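Ribosome-depleted total RNA of 8 libraries (4 lines, 2 libraries each) was sequenced. The submitters' processing notes list edgeR, run by the authors, and genome build mm9, while aligner, counter and annotation are not given in the sources used here. For each of 2 comparisons the authors deposited RPKM per library, a log2 fold, a mean log2 CPM and an FDR (q-value). The header names no unit for the RPKM columns, which were identified from their values. By sign, the authors' log2 folds were wt over ko for all 622 genes. Columns name a line and a number, and the repeated ko columns, identical in all 4, were used once.

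Limma 3.58.1 (R 4.3.3) with a mean-variance trend was run on log2(RPKM + 1), a scale that understates changes of low genes, for genes averaging 1 RPKM or more, with 1 mean per line over all 8 libraries. Its script was tested on simulated data whose means were kept above low levels, so genes as low as the locus transcripts in ko were not covered. Count tests need counts and were not used. Implied depths were those at which the most low values were whole within 0.06 of a read. Of 9 to 31 low values per library, 78.6% to 100% were whole, a share that the choice maximized, so it is no separate check. The iDamko depths also rest on the implied depths of the other libraries. Gene IDs were looked up in GENCODE vM21 (612 of 622), the rest by RefSeq symbol, so positions are in GRCm38 and not in the build of the authors' mapping.

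Genes were named by a rule: all called genes, the 10 largest non-overlapping differences in each direction, the 10 lowest and highest ko means at 10 RPKM or more, the 5 largest shifts with library number in each direction, and list members. Members and lists were chosen with earlier results of these data known. P-values rest on the spread between biological duplicates within a line, pooled over the 4 lines, wt included, and shared across genes by limma. A line whose libraries are both listed at 0 adds no spread of its own. The main model leaves out the shift with library number that the ko lines shared. Alternatives changed the pseudocount, filter, scaling, libraries and model. Tables were handled in Python 3.11.15 with pandas 2.3.3, and figures drawn with matplotlib 3.10.9.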

Additional observations from a re-analysis of the deposited data

Results flagged for a closer look

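For 25 of the genes that the naming rule covers or whose sequence is shown, the difference between the ko lines (iDamko minus Ainv18ko) differed from that between the wt lines (iDam minus BryGFP) in the limma contrast of both, on the log2(RPKM + 1) scale with p adjusted over 360 genes. Of these, 14 were in the Dlk1-Dio3 locus. BryGFP is not a wt line of the Ainv18 name, so line background and knockout cannot be told apart in the contrast. The contrast was negative for 7 locus snoRNAs, at -4.02 for AF357425 (adjusted p = 0.000246), -3.70 for the SNORD113 copy ENSMUSG00000084549 (adjusted p = 0.000246), -3.55 for the copy ENSMUSG00000084487 (adjusted p = 0.00175), -2.61 for AF357355 (adjusted p = 0.00178), and -2.50 for the snoRNA row named Rian, ENSMUSG00000084691 (adjusted p = 0.00175). It was -1.64 for the SNORD113 copy ENSMUSG00000064496 (adjusted p = 0.0423) and -1.37 for the copy ENSMUSG00000064726 (adjusted p = 0.0222). In all 7 the wt-line difference had the same sign as the ko-line difference, at -0.42 to -1.42, and the size of each contrast depends on the pseudocount because iDamko is at 0.

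For the other 7 locus transcripts the contrast was positive, with both ko lines below 1 RPKM and iDam below BryGFP. It was 1.76 for Gm23600 (SNORD113, ENSMUSG00000087885), 1.48 for Mir1906-1, 1.40 for Mir3070b, 1.38 for Mir453, 1.19 for Mir382, 1.18 for Mir3070a and 0.92 for Mir758, with adjusted p between 0.00175 and 0.0403 in limma. Every ko library was listed at 0 for Gm23600, Mir453, Mir382 and Mir758. Their contrast is thus the wt-line difference with its sign turned, and its size depends on the pseudocount.

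H19 and Mir675 had line differences of opposite sign in ko and wt. For H19 the contrast was 2.34 (adjusted p = 0.00787), with 1.24 between the ko lines and -1.10 between the wt lines. For Mir675 it was 1.98 (adjusted p = 0.0159), with 1.03 between the ko lines and -0.95 between the wt lines.

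The other 9 genes were not called between the ko lines. The contrast was 4.13 for Nnat, 2.76 for Tubb3, 2.01 for Cdh11, 1.79 for Pdgfrb, 1.37 for Itgb3 and 1.03 for Gfi1, where iDam lay below BryGFP, and -1.53 for Clec14a, -1.41 for Acvrl1 and -1.41 for Kctd12b, where iDam lay above BryGFP, with adjusted p between 0.000246 and 0.0330 in limma.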

How the results depend on the processing

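The count of 13 genes (1 higher and 12 lower in iDamko) kept within 1.5-fold in total and for lower genes under most settings. None of the 22 called or non-overlapping differences named changed sign. Their ko libraries do not overlap, so only a change of scaling could have turned a sign. Among other printed differences, that of Grb10 turned to -0.21 without iDamko library 1 (highest 0.30 with another library left out), and that of Tubb3 to -0.51 without iDamko library 2 and -0.43 without Ainv18ko library 1 (highest 0.89). With a pseudocount of 0.1 RPKM 2 genes were higher, and with 5 RPKM 6 genes passed, 0 higher and 6 lower. The number higher was 0 with no filter, 2 at a mean of at least 5 RPKM, 0 with median scaling, and 0 in a fit of only the 4 ko libraries. In alternatives chosen after seeing the data, the fit without the locus transcripts gave 0 genes in all, 0 higher and 0 lower, where fewer genes with small p-values enter the adjustment, and the replicate block with median scaling gave 0 higher. For the wt lines (91, with 22 higher and 69 lower in iDam) no filter gave 47 higher. For the contrast of line differences (35, with 22 higher and 13 lower) a pseudocount of 0.1 RPKM gave 13 higher and quantile normalization 24 lower. The median share of wt was 21.6% in iDamko and 22.02% in Ainv18ko over all genes lower in ko, and 31.8% in Ainv18ko with iDam as the wt base. Where no value is given for it, the cause was not tested.

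Leaving out 1 library at a time, where a lone library is assumed to vary like the others, gave 9 to 13 genes between the ko lines (0 to 2 higher, 9 to 13 lower), 48 to 94 between the wt lines (12 to 23 higher, 33 to 71 lower) and 14 to 26 in the contrast (9 to 18 higher, 5 to 9 lower). The wt-line count was 52 without iDam library 1, 55 without iDam library 2 and 48 without BryGFP library 2, and the contrast gave 14 without iDamko library 1, 15 without Ainv18ko library 2, 17 without Ainv18ko library 1 or iDam library 2, and 18 without iDamko library 2 or BryGFP library 2. The median share was 26.8% to 29.7% in iDamko and 27.5% to 30.6% in Ainv18ko. Over 22 alternatives the adjusted p was 0.00172 to 0.214 for Acta2 and 0.00835 to 0.642 for H19, and these calls were lost in 8 for Acta2 and 14 for H19. The calls of AF357425 and DQ267100 were lost in 1 of 21, the block on the 4 ko libraries.

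Library numbers were checked for pairing by the correlation across 360 genes of the change from number 1 to 2, which was 0.695 between the ko lines, 0.409 between iDamko and iDam, 0.516 between Ainv18ko and iDam, and -0.20 between iDam and BryGFP; with 2 numbers this is a hint from the data, not the design. A replicate block over all 8 libraries called the same 13 genes between the ko lines, 1 higher and 12 lower, and 53 genes in the contrast, 21 of them lower. With the replicate block on the 4 ko libraries alone, which leaves 1 residual degree of freedom, 0 genes passed, 0 higher and 0 lower, while 30 had an unadjusted p under 0.05. With the BryGFP numbers crossed, a replicate block gave 14 genes between the ko lines, 107 between the wt lines and 51 in the contrast, 21 of them lower. Depth limits the locus hairpins, since 1 read sets whether they are listed at 0.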
